A study of Mus musculus with 12 samples.

Results

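The 36 autophagy genes described here encode the machinery that builds, loads and degrades autophagosomes. They were chosen by gene symbol, not by a measured value, though with earlier results of these data known. By textbook role they were sorted into 7 groups. These were the ULK1 kinase complex, the class III phosphatidylinositol 3-kinase complex, membrane supply and the conjugation machinery. The others were the ATG8 proteins, cargo receptors, and the lysosome with its regulator Tfeb. All 36 were found, each as 1 row, among the 38283 genes of the table, and all 36 were among the 14017 genes that passed a filter on low values. RNA came from the arcuate nucleus of the hypothalamus (ARC), which holds the neurons that drive feeding, cut out of 14 µm brain sections by laser-capture microdissection. The mice were freely fed males on a C57BL/6 background, aged 8 weeks. They were either wild-type (WT, n = 5) or homozygous (Homo, n = 7) for R299Q, an amino acid change introduced into exon 7 of Prkag2, the gene of the γ2 subunit of the energy sensor AMPK. The change is in the germline and so in every cell of the Homo mice, and each library was made from 1 mouse.

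Autophagy carries cytoplasm, protein aggregates and organelles to the lysosome inside a double membrane. AMPK and the nutrient sensor mTORC1 act in opposite directions on the kinase ULK1, which starts the process, and a lipid kinase built around Vps34 and Beclin 1 then marks the membrane that grows into an autophagosome. Conjugation enzymes couple ATG8 proteins (the LC3 and GABARAP families) to that membrane, cargo receptors such as p62 bind them, and fusion with the lysosome completes degradation. In feeding neurons of the ARC, autophagy is known to bear on the supply of lipids and on neuropeptide levels. AMPK acts on several of these proteins by phosphorylation, and RNA levels do not report phosphorylation, protein or flux through the pathway. The comparison therefore asks only whether the RNA of the machinery differed between the genotypes.

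Each value is in FPKM, a fragment count corrected for how long the transcript is and how many fragments of the library were mapped. It does not correct for differences between libraries in their make-up, and comparisons between mice carry that limit. The 10 highest genes held from 95.9% (Homo 5) to 98.1% (WT 3) of the summed FPKM of a library. These sums ran from 13300000 (WT 4) to 21200000 (WT 3) FPKM, and the highest gene had a WT mean of 8620000. FPKM is divided by transcript length, so this share is not a share of fragments. The libraries fell into 2 sets by the number of genes above 0. WT 1, WT 2 and Homo 1 to 5 had 15742 to 16467 such genes, and WT 3 to 5, Homo 6 and Homo 7 had 18141 to 18635. The labels name no batch behind this split, which divides the genotypes unevenly (2 WT with 5 Homo, and 3 WT with 2 Homo), so genotype differences are also given within each set. The titles of Homo 1 to 5 and those of Homo 6 and Homo 7 are phrased in 2 ways, and this falls at the same place as the split among Homo mice. The ARC neuropeptides and general neuronal markers were present in all 12 libraries: 6 arcuate neuron genes led by Npy summed to 1100 to 3720 FPKM in WT and 2820 to 4070 in Homo, with the lowest sum in WT 3. Pituitary transcripts led by growth hormone reached 115 FPKM in WT 3, 68.2 in WT 5 and 55.6 in Homo 7, and lay at or below 11.8 in the other 9. Prkag2 itself was at 14.6 ± 5.42 FPKM in WT and 14.8 ± 4.88 in Homo (mean ± SD), and a single-base change in its RNA cannot be checked from FPKM. In captured tissue, fewer cells of a type and less RNA per cell cannot be told apart.

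In the ARC the autophagy machinery spanned a wide range of RNA levels, and genes for ATG8 proteins, a cargo receptor and a lysosomal membrane protein were the most abundant. The ATG8 genes Gabarapl1 (196 ± 49.5 FPKM in WT, n = 5) and Gabarap (188 ± 60.2) led, followed by the cargo receptor Sqstm1 (145 ± 23.2), the lysosomal membrane protein Lamp1 (129 ± 32.9) and the ATG8 gene Map1lc3a (116 ± 33.9). These 5 genes held between 59.8% and 67.2% of the summed FPKM of the 36 in each WT library and between 64.1% and 68.4% in each Homo library. The neighbours in this order were not separated in every mouse. Gabarapl1 was above Gabarap in 8 of 12 libraries, Sqstm1 above Lamp1 in 9 and Lamp1 above Map1lc3a in 8, while Map1lc3a was above the next ATG8 gene, Gabarapl2 (65.9 ± 10.5), in all 12. At the other end stood the ATG8 proteases Atg4a (2.13 ± 3.45 FPKM in WT) and Atg4d (2.02 ± 1.85) and the Vps34 cofactor Uvrag (2.72 ± 1.33). The Gabarapl1 mean exceeded that of 97.6% of the 14017 genes tested and the Atg4d mean that of 15.7%.

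**Figure D1:**
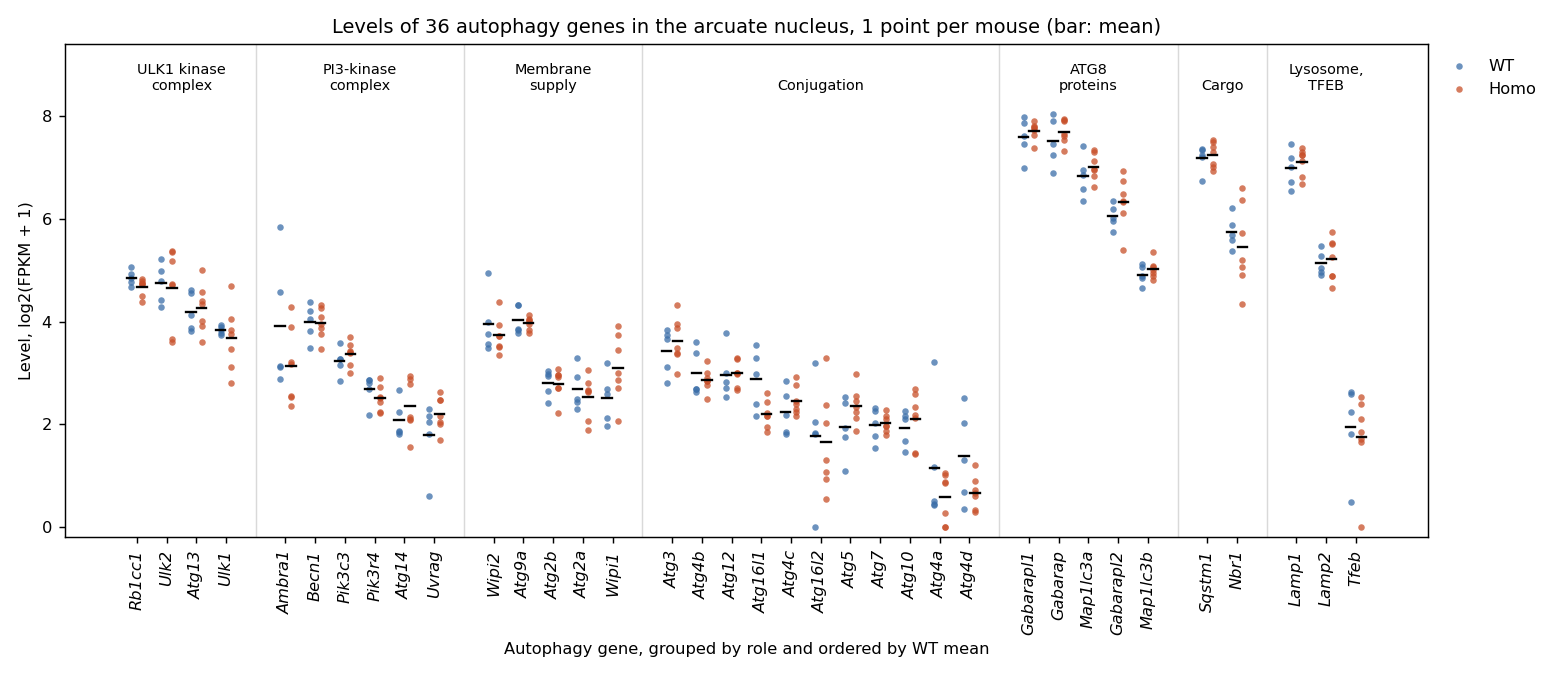
Level of each of the 36 autophagy genes as log2(FPKM + 1) on the vertical axis, 1 point per mouse (blue, WT, n = 5; orange, Homo, n = 7) with a bar at the mean, genes grouped by role on the horizontal axis. Gabarapl1, Gabarap, Map1lc3a, Sqstm1 and Lamp1 stand above the initiation, lipid kinase, membrane supply and conjugation genes in every mouse, and the points of WT and Homo overlap for every gene.

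No autophagy gene differed between the genotypes at an adjusted p under 0.05. The test was limma on log2(FPKM + 1), with Benjamini-Hochberg adjustment over all 14017 genes, and it called 1 gene in all (0.00713% of those tested). Adjusted p-values of the 36 lay between 0.856 and 0.995. At an unadjusted p under 0.05 there was 1 autophagy gene, Atg16l1, lower in Homo (2.78% of the 36), against 778 genes, or 5.55%, of all genes tested (3.05% higher and 2.5% lower). The WT and Homo values overlapped for all 36, where 31 of all genes tested (0.221%) did not overlap. Mean log2 values were higher in Homo for 19 and lower for 17 of them, or 52.8% higher against 49.3% of all genes, and the median log2 fold change was 0.03 against -0.01. An adjusted p above the threshold does not show that levels were equal.

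The precision of the comparison differed between genes. The 95% interval of the fold change of FPKM + 1 lay within a 2-fold change either way for 26 of the 36 (72.2%, against 58.7% of all genes tested). It lay within 1.5-fold for 12 of the 36, against 1907 of the 14017 genes tested (13.6%). The added 1 FPKM compresses the fold changes of low genes. For those among the 26, such as Atg14 (3.36 FPKM in WT) and Atg10 (2.89), the interval therefore understates the range in FPKM itself. The interval reached beyond 2-fold in at least one direction for the others, namely Uvrag, Ambra1, Wipi1, Atg4a, Atg4d, Atg5, Atg16l1, Atg16l2, Nbr1 and Tfeb. Over the 36, the median coefficient of variation between mice was 29.8% (WT) and 28.2% (Homo), where all genes tested had medians of 38.2% and 41.6%.

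**Figure D2:**
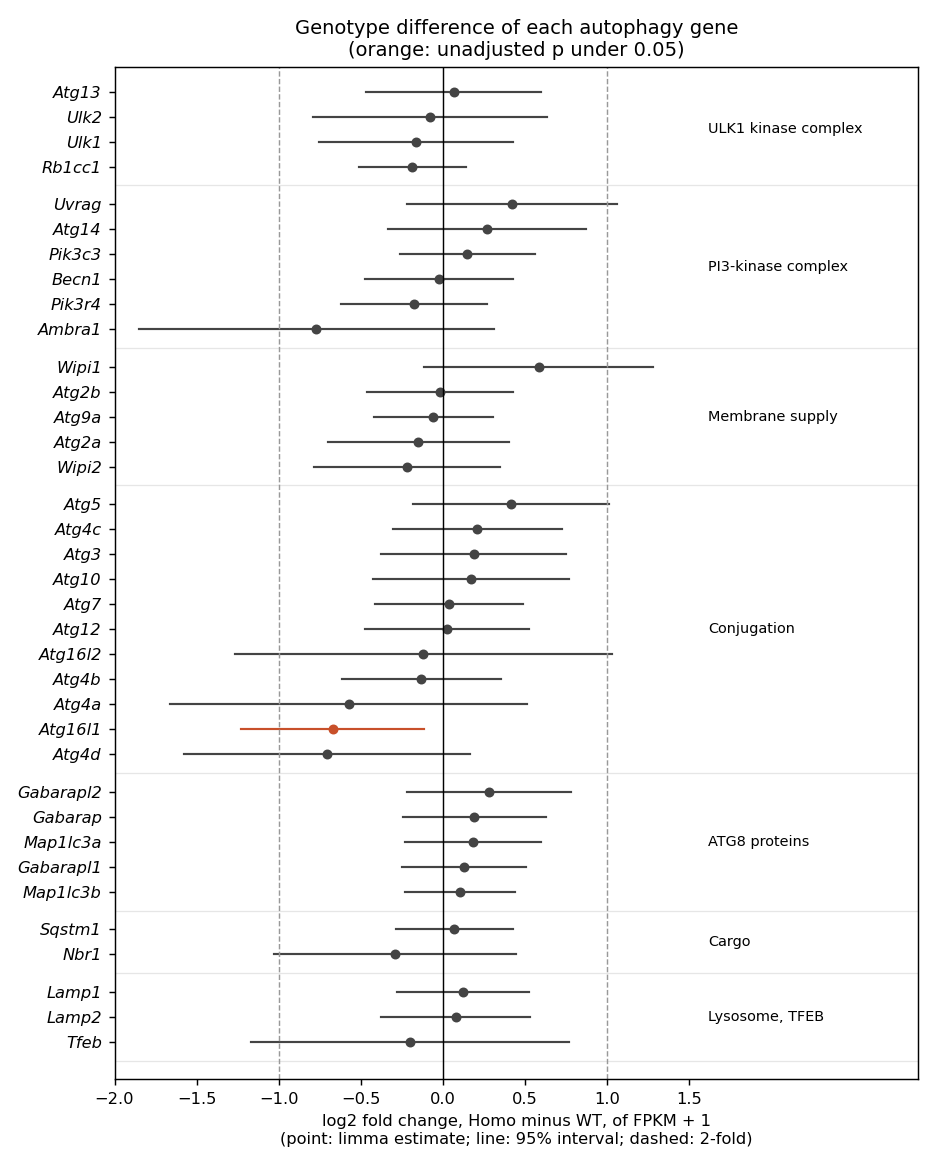
Difference between Homo and WT for each autophagy gene on the horizontal axis, as the limma log2 fold change of FPKM + 1 (point) with its 95% interval (line), genes grouped by role on the vertical axis; dashed lines mark a 2-fold change. All intervals include 0 except that of Atg16l1, drawn in orange, whose unadjusted p was under 0.05 and whose adjusted p was 0.856.

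The ULK1 kinase complex receives the signals of AMPK and mTORC1. Its 4 genes had log2 fold changes between -0.19 and 0.07, with 1 higher and 3 lower in Homo. Ulk1, the kinase that AMPK phosphorylates directly, read 13.8, 12.8, 13.3, 12.4 and 14.3 FPKM in WT 1 to 5 and ranged from 5.95 to 24.8 (median 12.6) in Homo. WT mice lay within a narrow band, and Homo mice lay on both sides of it, lowest in Homo 2 and highest in Homo 5. The coefficient of variation of Ulk1 was 5.76% in WT and 48.5% in Homo, a contrast that was not tested, and the log2 fold change was -0.16 (SE 0.28, 95% interval -0.75 to 0.43; limma adjusted p = 0.964). Its paralog Ulk2 was higher than Ulk1 in 11 of 12 libraries, at 26.5 ± 7.3 FPKM in WT and 27.1 ± 12.3 in Homo. Rb1cc1, which encodes the scaffold FIP200, read 32.4, 26.1, 27.9, 29.3 and 24.6 FPKM in WT and ranged from 19.7 to 27.4 (median 25.6) in Homo. No Homo mouse was above the WT median, but the groups overlapped, and the log2 fold change was -0.18 (SE 0.15, 95% interval -0.51 to 0.14; limma adjusted p = 0.919). Atg13, the adaptor subunit, had a log2 fold change of 0.07.

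The phosphatidylinositol 3-kinase complex makes the lipid PI3P on the growing membrane. Of its 6 genes 3 were higher and 3 lower in Homo, with a median log2 fold change of 0.06. Becn1, encoding the core subunit Beclin 1, read 17.5, 15.6, 10.1, 19.7 and 13.1 FPKM in WT and ranged from 10.04 to 19.1 (median 14.5) in Homo, so that the Homo range lay almost entirely within the WT range. Its log2 fold change was -0.02 (SE 0.21, 95% interval -0.47 to 0.43; limma adjusted p = 0.994). The catalytic subunit Pik3c3 (Vps34) and its regulatory partner Pik3r4 differed by 0.15 and -0.18 on the log2 scale. The subunits Atg14 and Uvrag, which direct the complex to autophagosome formation and to endosomes, differed by 0.27 and 0.42. Without WT 1, where Uvrag was at 0.521 FPKM, its difference was 0.13, and that of Atg14 was 0.41. Neither was higher than the other throughout, with Atg14 above Uvrag in 5 of 12 libraries. Ambra1, which links Beclin 1 to upstream kinases and ubiquitin ligases, read 56.5, 7.77, 7.71, 6.37 and 22.9 FPKM in WT and ranged from 4.12 to 18.5 (median 8.03) in Homo. Its WT mean rested on WT 1 and WT 5, and the other 3 WT mice lay within the Homo range. The log2 fold change of Ambra1 was -0.77 (SE 0.51, 95% interval -1.85 to 0.31; limma adjusted p = 0.915), and without WT 1 it was -0.29. Within the library sets it was -1.51 and 0.03, the first set being the one that holds WT 1.

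Membrane supply rests on Atg9a, the transmembrane protein of the vesicles that seed the autophagosome, on the lipid transfer proteins Atg2a and Atg2b, and on the PI3P-binding proteins Wipi1 and Wipi2. Of the 5, only Wipi1 had a higher mean log2 value in Homo over all 12 libraries. Wipi1 read 2.91, 5.05, 3.35, 8.16 and 5.45 FPKM in WT and ranged from 3.18 to 14.1 (median 6.99) in Homo. Homo 1, Homo 5 and Homo 6 were above every WT mouse and Homo 2 was below all but WT 1. The log2 fold change was 0.59 (SE 0.33, 95% interval -0.11 to 1.28; limma adjusted p = 0.906), with an unadjusted limma p of 0.0931 and an exact two-sided permutation p of 0.117 over all 792 ways of dividing the libraries. It was 0.83 and 0.40 within the sets with fewer and more genes above 0. Atg9a read 19.03, 12.8, 13.3, 13.5 and 19.01 FPKM in WT and ranged from 12.6 to 16.6 (median 15.2) in Homo, with a log2 fold change of -0.06 (SE 0.17, 95% interval -0.42 to 0.31; limma adjusted p = 0.988). Wipi2, the form known to recruit ATG16L1 to the membrane, was above Wipi1 in 11 of 12 libraries and differed by -0.22, or 0.03 without WT 1. Atg2a and Atg2b differed by -0.15 and -0.02.

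**Figure D3:**
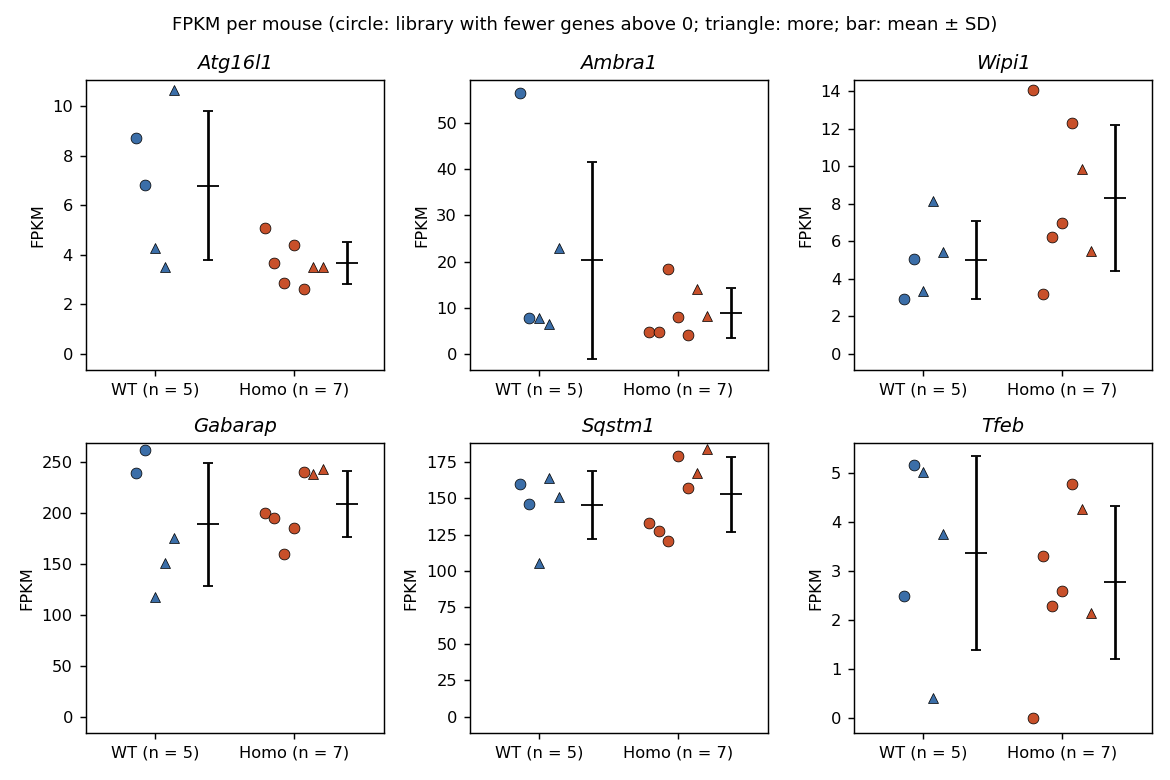
FPKM of 6 autophagy genes in each mouse (circles, libraries with fewer genes above 0; triangles, libraries with more; blue, WT, n = 5; orange, Homo, n = 7), with the mean ± SD beside each group. Atg16l1 is lower in Homo on average with overlapping groups, the Ambra1 mean in WT follows WT 1 at 56.5 FPKM, and Tfeb is listed at 0 in Homo 1.

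The conjugation machinery has 11 genes, of which 6 were higher and 5 lower in Homo, with a median log2 fold change of 0.02. Atg16l1 encodes the protein that places the ATG12-ATG5 conjugate on the membrane and so sets where LC3 is attached (GRCm38 chr1:87755870-87792428, plus strand; the small RNA genes Gm25395 and Scarna6 lie within it on the same strand). It read 8.74, 6.84, 4.26, 3.49 and 10.7 FPKM in WT 1 to 5 and ranged from 2.63 to 5.104 (median 3.503) in Homo. The 3 highest values were all WT, no Homo mouse was above the WT median, and WT 3 and WT 4 lay within the Homo range. Means were 6.8 ± 3.01 and 3.66 ± 0.852 FPKM (mean ± SD; n = 5 and 7), and the log2 fold change was -0.67 (SE 0.26, 95% interval -1.23 to -0.11; limma adjusted p = 0.856). The unadjusted limma p was 0.0222 and the exact two-sided permutation p was 0.024, the smallest possible being 0.0013. The difference had the same direction within both sets (-0.91 and -0.53), and with mice exchanged only within their set the exact permutation p was 0.019. Leaving out single libraries gave log2 fold changes from -0.85 (without WT 4) to -0.50 (without WT 5). The unadjusted limma p was then 0.0615 without WT 1 and 0.0764 without WT 5, the 2 WT mice with the highest values. Its paralog Atg16l2 was at 0 in WT 1 and up to 8.83 FPKM in Homo 4, and differed by -0.12 with an interval from -1.27 to 1.03.

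Atg5, the partner that is coupled to ATG12, read 2.81, 2.38, 1.13, 4.801 and 4.32 FPKM in WT and ranged from 2.65 to 6.84 (median 4.08) in Homo. Only Homo 1 was below the WT median and the log2 fold change was 0.42 (SE 0.28, 95% interval -0.18 to 1.01; limma adjusted p = 0.915), or 0.20 without WT 3. The remaining conjugation enzymes had small differences: Atg7, the E1-like enzyme, 0.04; Atg3 and Atg10, the E2-like enzymes, 0.19 and 0.17; and Atg12 0.02. Among the ATG4 proteases, which trim ATG8 proteins before conjugation and release them afterwards, Atg4b was the highest, above Atg4c and Atg4d in all 12 libraries and above Atg4a in 11. Atg4b and Atg4c differed by -0.13 and 0.21. Atg4d read 4.71, 3.07, 1.46, 0.279 and 0.609 FPKM in WT and ranged from 0.22 to 1.3 (median 0.577) in Homo. Its 3 highest values were WT 1, WT 2 and WT 3, and no Homo mouse was above the WT median. The log2 fold change was -0.70 (SE 0.41, 95% interval -1.58 to 0.17; limma adjusted p = 0.915), and it was -1.58 and -0.15 within the sets and -0.42 without WT 1. The exact permutation p was 0.0745 over all libraries and 0.019 within the sets. Values this low are compressed by the added 1 FPKM, so the fold change understates the ratio of the means. Atg4a was listed at 0 in Homo 4 and Homo 5 and at 8.27 FPKM in WT 3, and its difference of -0.57 became -0.06 without WT 3.

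The ATG8 proteins coat the autophagosome and hold its cargo, and their genes made up between 45.9% and 53.1% of the summed FPKM of the 36 genes in WT and between 50.2% and 54.0% in Homo. Over all 12 libraries all 5 had higher means in Homo, with log2 fold changes between 0.11 and 0.28 and none at an unadjusted p under 0.05. Gabarapl1 (chr6:129533160-129542346, plus strand), the most abundant, read 252, 233, 127, 174 and 195 FPKM in WT and ranged from 166 to 238 (median 218) in Homo. Gabarap (chr11:69991143-69994951, plus strand) read 239, 261, 117, 150.3 and 175 FPKM in WT and ranged from 159.6 to 243 (median 199.7) in Homo. For both genes the lowest of the 12 values was WT 3, and WT 1 or WT 2 was the highest, so that the WT range enclosed the Homo range. The log2 fold changes were 0.13 (SE 0.18, 95% interval -0.25 to 0.51; limma adjusted p = 0.942) for Gabarapl1 and 0.19 (SE 0.20, 95% interval -0.24 to 0.63; limma adjusted p = 0.923) for Gabarap.

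Map1lc3a, one of the LC3 genes, read 169, 94.2, 80.8, 115 and 123 FPKM in WT and ranged from 97.7 to 159.9 (median 124) in Homo. Here too the WT range, from WT 3 to WT 1, enclosed the Homo range, and the log2 fold change was 0.19 (SE 0.20, 95% interval -0.23 to 0.60; limma adjusted p = 0.923). Map1lc3b, which encodes the LC3B protein used as the common marker of autophagosomes, read 27.6, 33.8, 24.1, 28.8 and 32.5 FPKM in WT and ranged from 26.99 to 39.9 (median 31.2) in Homo. It was the lowest of the 5, with a coefficient of variation of 13.2% in each genotype, and its log2 fold change was 0.10 (SE 0.16, 95% interval -0.23 to 0.44; limma adjusted p = 0.951). Map1lc3a was above Map1lc3b in all 12 libraries. Gabarapl2, which encodes GATE-16, read 79.99, 72.3, 52.7, 61 and 63.5 FPKM in WT and ranged from 41.1 to 122 (median 80.7) in Homo. Homo 1, Homo 4, Homo 5 and Homo 7 were above every WT mouse and Homo 2 was below all of them, and the log2 fold change was 0.28 (SE 0.23, 95% interval -0.22 to 0.78; limma adjusted p = 0.919). As a share of the family, Gabarapl1 held 32.8% ± 0.78 of the summed ATG8 FPKM in WT and 31.8% ± 1.88 in Homo, Gabarap 31.2% ± 3.71 and 31.4% ± 2.72, and Map1lc3a 19.7% ± 3.48 and 19.6% ± 1.98 (mean ± SD).

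The ATG8 genes did not have 1 direction in both library sets. Among the libraries with fewer genes above 0, 2 of the 5 were higher in Homo, with a median log2 fold change of -0.02; among those with more, all 5 were higher, with a median of 0.41. Gabarap differed by -0.36 in the first set and by 0.72 in the second, and Gabarapl1 by -0.27 and 0.50. Fitted as an interaction, the genotype effect differed between the sets by 1.08 on the log2 scale for Gabarap (limma adjusted p = 0.848) and by 0.77 for Gabarapl1 (limma adjusted p = 0.876). These 2 were the only ones of the 36 at an unadjusted p under 0.05 in that test, where 5.18% of all genes were, and neither passed adjustment (0.0428% of all genes did). The first set has 2 WT mice, which had the highest Gabarap values of WT, and the second has 3, among them WT 3, the lowest. The same shift was seen over all 36 genes and over the transcriptome. In the first set 12 of the 36 were higher in Homo with a median of -0.14 (all genes, 40.1% higher and a median of -0.08), and in the second 26 were higher with a median of 0.23 (64.6% and 0.13). In the first set Atg4d and Atg16l1 had an unadjusted limma p under 0.05 (2 of the 36; 5.98% of all genes), in the second Gabarap (1 of the 36; 5.07%), and none passed adjustment (0.0428% and 0.136% of all genes). Between the sets themselves, 1 of the 36 had an unadjusted limma p under 0.05 (8.42% of all genes), Uvrag, higher by 0.61 in the set with more genes above 0, and none passed adjustment (0.178%). With the set as a term in the fit the median over the 36 was 0.04, and 3 had an unadjusted limma p under 0.05 (4.78% of all genes), namely Atg4d at -0.93, Atg16l1 at -0.74 and Uvrag at 0.61, each with an adjusted p of 0.978.

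**Figure D4:**
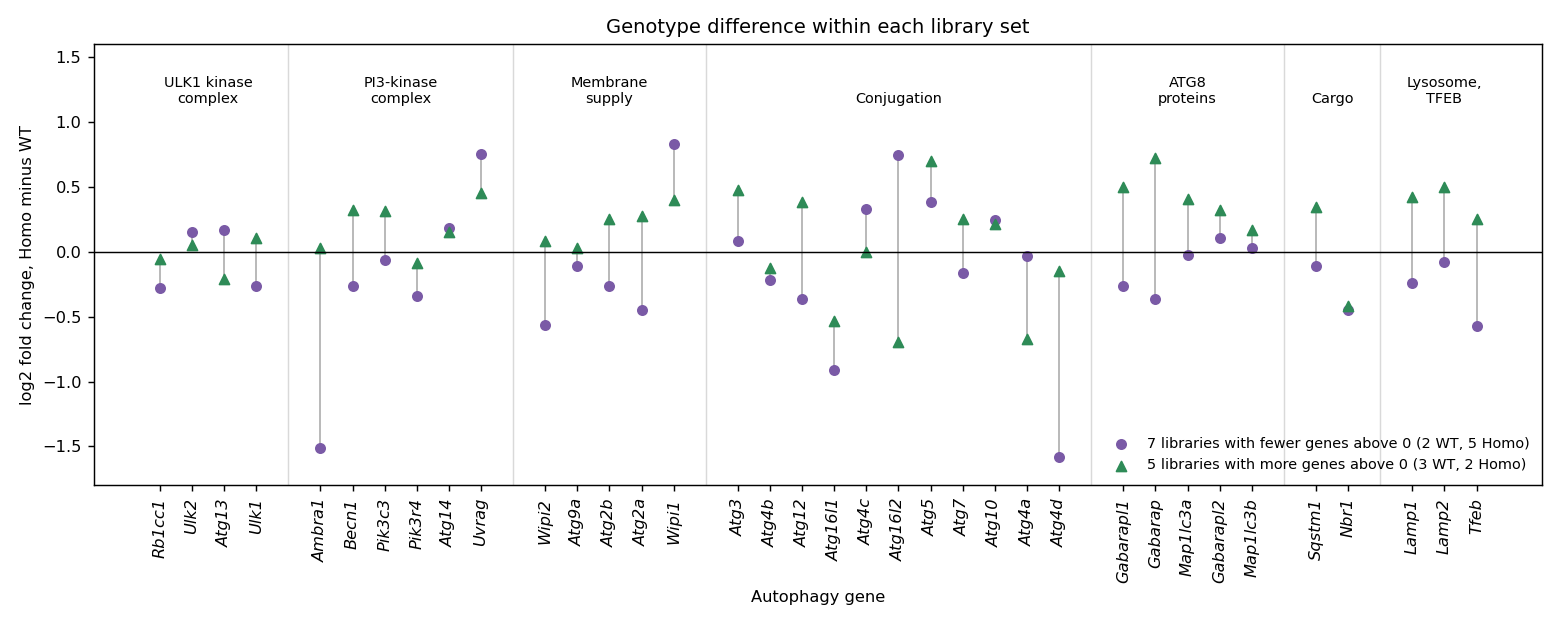
Log2 fold change of Homo against WT for each autophagy gene (vertical axis), fitted separately in the 7 libraries with fewer genes above 0 (purple circles, 2 WT and 5 Homo) and the 5 with more (green triangles, 3 WT and 2 Homo), genes grouped by role. 12 of 36 circles and 26 of 36 triangles lie above 0, the ATG8 genes, Lamp1 and Lamp2 among those whose triangle is above the circle.

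WT 3 gave the lowest WT value for 19 of the 36 genes (52.8%, against 35.6% of all genes tested) and WT 1 the highest for 13 (36.1%, against 26.7%). Over all genes tested WT 3 also had the lowest mean log2(FPKM + 1) of the WT libraries, 2.97 against 3.04 to 3.23. Homo 3 was lower still at 2.86 and gave the lowest Homo values of Gabarapl1 (166) and Gabarap (159.6). The 10 highest genes of WT 3 took 98.1% of its summed FPKM, the largest share of the 12 libraries. That share is of FPKM and not of fragments. WT 3 also had the lowest summed arcuate neuron markers of the 12 libraries and the highest pituitary sum, and the part of these in the autophagy values was not tested. Without WT 3, Gabarapl1 differed by -0.02 and Gabarap by 0.04, and after quantile normalization of all 12 libraries they differed by 0.06 and 0.14. Leaving out other single libraries gave values up to 0.23 for Gabarapl1 (without WT 1) and 0.32 for Gabarap (without WT 2).

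The cargo receptors bind ubiquitinated material and the ATG8 proteins. Sqstm1, which encodes p62, read 159.8, 146, 106, 164 and 151 FPKM in WT and ranged from 120.5 to 184 (median 157) in Homo. Homo 4, Homo 6 and Homo 7 were above every WT mouse, WT 3 was the lowest of all, and the log2 fold change was 0.07 (SE 0.17, 95% interval -0.29 to 0.43; limma adjusted p = 0.982). Nbr1 read 57.6, 72.6, 40.2, 47.3 and 50.4 FPKM in WT and ranged from 19.1 to 95.6 (median 35.5) in Homo. Homo mice were spread more widely than WT mice, with coefficients of variation of 58.5% and 23.0%, and lay both above and below all WT mice. Its log2 fold change was -0.29 (SE 0.34, 95% interval -1.03 to 0.45; limma adjusted p = 0.929). Sqstm1 was above Nbr1 in all 12 libraries.

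Lamp1 and Lamp2 encode the main proteins of the lysosomal membrane, and Tfeb encodes the transcription factor that switches on lysosomal and autophagy genes through E-box elements. Lamp1 read 175, 145, 92.3, 104 and 128 FPKM in WT and ranged from 102 to 166 (median 149) in Homo, and Lamp2 read 37.7, 30.1, 29.1, 31.9 and 43.1 in WT and ranged from 24.1 to 52.7 (median 37.2) in Homo. The WT range of Lamp1 enclosed the Homo range, and for Lamp2 Homo 4, Homo 6 and Homo 7 were above every WT mouse. The log2 fold changes were 0.12 (SE 0.19, 95% interval -0.28 to 0.53; limma adjusted p = 0.953) and 0.08 (SE 0.21, 95% interval -0.38 to 0.53; limma adjusted p = 0.985). Lamp1 was above Lamp2 in all 12 libraries. Tfeb was near the bottom of the list and uneven, at 2.49, 5.14, 5.02, 0.395 and 3.74 FPKM in WT, with WT 4 the lowest, and from 0 to 4.76 (median 2.58) in Homo, listed at 0 in Homo 1. Its log2 fold change was -0.20 (SE 0.45, 95% interval -1.17 to 0.77; limma adjusted p = 0.98), and without Homo 1 it was 0.09.

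Because Tfeb and its relatives bind the E-box CACGTG, the promoters of the autophagy genes were searched for it. RefSeq windows of 250 bases before to 50 bases after an annotated start on GRCm38.p6 were found for 30 of the 36 genes (35 windows). The E-box reads the same on both strands and was present in 5 of the 35 windows (14.3%, in Atg3, Atg5, Atg7, Atg14 and Lamp1), against 7.15% of 32851 promoter windows of all genes. For Atg7 and Atg14 that window belongs to a start inside the gene. The Atg7 E-box lies within chr6:114670952-114670981, and the gene, on the plus strand, starts at 114643097. The Atg14 E-box lies within chr14:47568418-47568447, and the gene, on the minus strand, starts at 47570649. The longer palindromic CLEAR element of 10 letters, which contains the E-box, was in 0 of the 35 and in 0.326% of all windows. The 2 runs that hold more than 1 E-box just before the annotated start are shown, with each E-box in capitals, for Lamp1 (GRCm38.p6 chr8:13159088-13159160, plus strand, 4 E-boxes) and Atg3 (chr16:45158723-45158775, plus strand, 2 E-boxes).
Lamp1: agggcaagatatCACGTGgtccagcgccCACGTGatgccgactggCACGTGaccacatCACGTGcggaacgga
Atg3: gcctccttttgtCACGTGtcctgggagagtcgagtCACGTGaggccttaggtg
The 5 genes with an E-box had log2 fold changes between 0.04 and 0.42, all above 0 over the 12 libraries, with a median of 0.19, and the 25 with a window and no E-box had a median of -0.06 with 11 above 0. In the set with fewer genes above 0, 3 of the 5 were higher in Homo and Lamp1 (-0.24) and Atg7 (-0.17) were lower, and in the other set all 5 were higher. Atg7 was also at -0.07 without WT 3. None of the 5 had an unadjusted p under 0.05. A match of 6 letters is a description of the sequence and no evidence of binding.

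A further 52 genes of autophagy and the lysosome were read in the same way, covering other core factors, selective autophagy, fusion with the lysosome and lysosomal enzymes. None passed at an adjusted p under 0.05. Of the 52, 33 were higher and 19 lower in Homo (63.5% higher, against 49.3% of all genes tested). The median log2 fold change was 0.07, against -0.01 over all genes. In the set with fewer genes above 0, 29 were higher with a median of 0.02, and in the set with more, 35 with 0.18. An unadjusted limma p under 0.05 was seen for 2 of the 52, both higher in Homo (3.85%, against 5.55% of all genes tested in either direction). One of them, Pink1, the kinase that marks damaged mitochondria for removal, read 56.96, 42.1, 41.6, 60.7 and 42.5 FPKM in WT and ranged from 56.96 to 82.99 (median 73.4) in Homo. Of the Homo mice 6 were above every WT mouse, and Homo 3 was level with WT 1 and below WT 4. Means were 48.8 ± 9.29 and 70.3 ± 9.51 FPKM (mean ± SD; n = 5 and 7), with a log2 fold change of 0.53 (SE 0.16, 95% interval 0.18 to 0.88; limma adjusted p = 0.763), an unadjusted limma p of 0.00594 and an exact permutation p of 0.00253, each the smallest of the 52. It was 0.51 in each library set, and the exact permutation p within sets was 0.00952. The unadjusted limma p stayed under 0.05 with each of the 12 libraries left out. These fits reuse the same mice. The 52 genes were chosen with earlier results of these data known, so none of these p-values is independent support.

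The 5 microglial markers, led by Aif1, summed to 22.3 to 32.7 FPKM in WT and 25.7 to 46.9 in Homo, with none of the 5 at 0 in every library. Their mean log2 difference, Homo minus WT, was 0.40, and some other marker lists were similar. It was 0.41 for oligodendrocyte, 0.41 for arcuate neuron and 0.27 for astrocyte markers. Endothelial (0.17), general neuronal (0.06), tanycyte and ependymal (-0.10) and pituitary markers (-0.59) were lower. Single arcuate neuron genes ranged from 0.02 (Tac2) to 0.60 (Npy), with Agrp also at 0.60. The paper reports higher Agrp and Npy RNA in the ARC of Homo mice, so this list does not measure cell type alone. Agrp also differed between the library sets, by -0.94 in the set with more genes above 0 (limma adjusted p = 0.0293). The marker list differences are given over all 12 libraries only. The part of any cell type in the values of the autophagy and lysosome lists was not tested. Over all 12 libraries the lysosome list had 14 of 20 genes higher in Homo with a median of 0.12. The selective autophagy list had 7 of 11 with 0.06, the fusion list 7 of 11 with 0.07 and the other core factors 5 of 10 with -0.003. These counts depended on the library set. In the sets with fewer and more genes above 0, the lysosome list had 9 and 15 genes higher, with medians of -0.06 and 0.325. The selective autophagy list had 9 and 7 higher, the fusion list 5 and 6, and the other core factors 6 and 7. Of all genes tested, 40.1% and 64.6% were higher in these sets.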

How the data were processed

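RNA of laser-captured ARC from 5 WT and 7 Homo mice was whole-transcriptome amplified and sequenced, and the authors deposited 1 table of FPKM values for 38283 genes, matched to mice by their labels. The submitters' processing notes name TopHat2 2.0.8, Cufflinks 2.2.1 and the build GRCm38, and any scaling beyond FPKM is not given in the sources used here. Fragment counts were not used, so no counting interval is given, and p-values measure the spread between mice.

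Values were taken as log2(FPKM + 1). Genes with a mean FPKM of 1 or more in the 12 libraries (14017) went into 1 limma fit (version 3.58.1, R 4.3.3; functions lmFit and eBayes, trend and robust options on) of genotype alone, and p-values were adjusted over all of them by Benjamini-Hochberg. For single genes the difference in mean log2 value was also tested by exact two-sided permutation, over 792 ways of dividing the libraries (smallest p 0.0013) and over 210 rearrangements within the library sets (smallest p 0.0048), for each of the 36 members, the 52 further genes and the markers, without adjustment. The sets were divided where the count of genes above 0 showed its widest gap. The scripts were tested on simulated data.

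The members, the role groups, the 52 further genes and the cell type markers were chosen with earlier results of these data known. WT values per library, with the Homo range and median, are given for the following. These are textbook genes of each step, the gene with the smallest p in each role group and any at an unadjusted p under 0.05. Atg4d was added after its values were seen. GENCODE mouse release 21 (GRCm38) gave the gene positions, and in it 7 of the 36 overlap another gene on the same strand and 15 on the other strand, and reads from these, or from near-identical pseudogenes, cannot be told apart in FPKM. Promoter windows are from RefSeq on GRCm38.p6. Alternatives were another pseudocount (0.1), other filters, quantile and upper-quartile scaling, array weights, the library sets, a replicate block and each library left out. One of the 2 further genes at an unadjusted p under 0.05 is not reported here.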

Additional observations from a re-analysis of the deposited data

Results flagged for a closer look

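In 3 of the 72 groups of values (36 genes in each genotype), 1 mouse lay far from the others of its group by Dixon's test, which flags about 1 in 20 groups by chance. All 3 were WT. Wipi2 was 29.97 FPKM in WT 1, where the other 4 WT mice lay between 10.21 and 14.95. Atg12 was 12.72 FPKM in WT 1, against 4.788 to 6.957 in the others. Atg4a was 8.272 FPKM in WT 3, against 0.3504 to 1.261 in the others. The log2 fold changes without the mouse concerned were 0.03 for Wipi2, 0.23 for Atg12 and -0.06 for Atg4a.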

How the results depend on the processing

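Across 22 alternatives no autophagy gene and none of the 52 further genes passed at an adjusted p under 0.05 in the limma fits. Over the autophagy genes with WT values given per library, all but Atg4d, there were 393 values for 18 genes. Of these values, 367 kept their direction and 26 reversed. The lowest limma adjusted p was 0.627, and 7 of the 18 genes kept their direction throughout. The count of autophagy genes at an unadjusted p under 0.05 (1 in the report) was 0 with a mean of at least 5 FPKM, which left 25 of them, 0 with array weights, 3 with the library set as a term, 2 in the set with fewer genes above 0, and between 0 and 3 with single libraries left out (0 without WT 1 or WT 5, 3 without WT 4 or Homo 2). For the 52 further genes that count (2) was 1 in the set with more genes above 0, and between 1 and 4 with single libraries left out (1 without WT 3, Homo 4, Homo 5 or Homo 6, 4 without WT 5). The median log2 fold change of the 36 was -0.14 and 0.23 in the sets with fewer and more genes above 0. In the set with fewer, directions reversed for Map1lc3a (-0.022), Gabarap (-0.36), Gabarapl1 (-0.27), Sqstm1 (-0.11), Lamp1 (-0.24) and Lamp2 (-0.079). In the set with more they reversed for Ulk1 (0.10), Becn1 (0.32), Ambra1 (0.03), Atg9a (0.031) and Tfeb (0.25). Array weights reversed Becn1 (0.004) and Tfeb (0.22), and the set as a term Becn1 (0.001). With single libraries left out, the ranges that crossed 0 were -0.15 to 0.074 for Becn1, -0.12 to 0.018 for Atg9a, -0.016 to 0.23 for Gabarapl1, -0.04 to 0.12 for Sqstm1, -0.01 to 0.17 for Lamp2 and -0.57 to 0.09 for Tfeb. The cause of these shifts was not tested. Atg16l1, Atg5 and Tfeb fell under the filter at 5 FPKM. The replicate numbers did not pair the mice (correlations of deviations from -0.05 to 0.03 over 5 pairs). With the replicate number as a block, 0 of the 36 had an unadjusted p under 0.05, Sqstm1 was at -0.017 and Lamp2 at -0.091, and Atg16l1 was at -0.66 with a limma p of 0.0714. FPKM without counts gives no limit of detection for values at 0.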
